A study of Mus musculus with 8 samples.

Results

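The mitochondrial carriers of the Slc25 family were followed in brown adipose tissue (BAT). The family was taken as every protein-coding gene whose symbol in the GENCODE annotation of GRCm38 was Slc25a followed by a number, plus Ucp2 and Ucp3, which belong to the same family under older names. Ucp1, the uncoupling protein that defines BAT, was left out and is used only as a reference. The rule found 49 genes among the 44674 of the deposited tables. It used names and no measured value. Slc25a5-ps, a transcribed pseudogene of Slc25a5, was not counted as a member.

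BAT was collected from 4 control and 4 Ox1RΔSERT mice, all male. High-fat diet (HFD) was given from week 4 to week 18 of age, and the tissue was dissected when a hyperinsulinemic-euglycemic clamp ended, so every value below was obtained under insulin infusion with blood glucose held steady. The question was how loss of the orexin receptor Ox1R (gene Hcrtr1) in serotonergic neurons affects the transcriptome of BAT. Poly-A RNA was sequenced, and the depth was 35852667 to 50063257 estimated counts per mouse. Ox1RΔSERT mice had the genotype Ox1R fl/fl, Sert-Cre tg/wt, and the control mice came from the same breeding and carried the floxed alleles without the Cre transgene. Cre was driven by Slc6a4, the serotonin transporter gene, which marks serotonergic neurons, and a reporter for this Cre line was also seen in parts of cingulate cortex and thalamus. The deletion was made in neurons and cannot be checked in BAT. Mice are named by their numbers, and values are always listed in the order 10684, 11253, 11560 and 11563 for control mice and 11243, 11601, 11613 and 11708 for Ox1RΔSERT mice. Nothing in the labels pairs the mice or names a batch.

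The inner mitochondrial membrane is closed to most metabolites. Slc25 carriers move nucleotides, phosphate, carboxylates, amino acids, acylcarnitines and cofactors across it, usually by exchange of one substrate for another. A brown adipocyte burns fatty acids in its mitochondria to make heat, and it relies on these carriers to bring in acylcarnitines, cofactors and phosphate and to export citrate for fatty acid synthesis. The uncoupling proteins are members of this family by structure.

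The label of the tissue was checked with 10 brown adipocyte markers. All 10 were detected in every mouse, and their summed normalized value (CPM, the count per library size with TMM scaling in edgeR) was 6612 to 8738 in control mice and 4443 to 6855 in Ox1RΔSERT mice. Of these 10, 8 had a log2 fold change below 0. The lower end of the Ox1RΔSERT range came from mice 11601 (4573) and 11708 (4443), and the values of mice 11243 and 11613 lay at 6855 and 6384. In whole tissue, fewer cells of a type and less RNA per cell cannot be told apart.

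Mice 11601 and 11708 stood apart from the other 6 in brown adipocyte and leukocyte markers and recur in many results below. No label sets them apart, and they were singled out by their values in these data. Leaving out the lowest or highest mice of a group reduces its difference by construction. Values without these mice are therefore descriptive only. Leukocyte and macrophage markers, 10 of 10 of which were detected, summed to 105 to 235 in control mice and 165 to 864 in Ox1RΔSERT mice, with 864 in mouse 11601 and 686 in mouse 11708. Skeletal muscle markers (10 of 10 detected) summed to 2.71 to 1966 in control mice and 11.6 to 2728 in Ox1RΔSERT mice, and the high values were those of control mouse 11253 (1966) and Ox1RΔSERT mouse 11708. Hepatocyte markers (4 of 4 detected) summed to 2.35 to 34.3 in control mice and 6.26 to 719 in Ox1RΔSERT mice, the highest being mouse 11708. Erythroid (5 of 5), endothelial (5 of 5) and white adipocyte (4 of 5 matched) markers had overlapping ranges in both groups. In none of these lists was a marker at 0 in all mice. Mitochondrially encoded genes gave 40.0%, 46.8%, 42.7% and 42.1% of the counts in control mice and 44.6%, 33.6%, 34.0% and 36.2% in Ox1RΔSERT mice, so that this share was below every control mouse in 3 of 4 Ox1RΔSERT mice. The TMM factor, by which edgeR scales the library size, was 0.880 to 0.968 in control mice and 0.915 to 1.19 in Ox1RΔSERT mice. The part of these library differences in the results on mitochondrial genes was not tested.

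Of the 49 members, 42 passed the filter on low counts and were tested, and 7 did not. No counts were found for Slc25a41 or Slc25a54 in any mouse. The other 5 untested members had few counts summed over all 8 mice, with 8 for Slc25a21, 19 for Slc25a18, 57 for Slc25a43, 62 for Slc25a31 and 64 for Slc25a2. In single mice their counts ranged from 0 to 21. A value of 3 counts corresponded to 0.0592 to 0.0951 CPM, a floor that covers counting error only.

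Levels of different members were compared by TPM, which accounts for transcript length. Mean TPM over the 8 mice was at least 100 for 7 members, between 10 and 100 for 17, between 1 and 10 for 14 and under 1 for 11. The 7 most abundant members held 69.2% of the family's TPM. Slc25a5, which exchanges ADP for ATP, was the most abundant at 299 ± 32.4 TPM (SD over 8 mice). It was followed by Slc25a20, the carnitine/acylcarnitine carrier (224 ± 17.4). The ranges of these 2 genes did not overlap, since the lowest value of Slc25a5 was 255 and the highest of Slc25a20 was 252. Every later neighbour in the order overlapped the next over the 8 mice.

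Among the next in the order were Slc25a51, which imports NAD (184 ± 29.1 TPM), Slc25a3, the phosphate carrier (183 ± 34.5), Slc25a39, needed for glutathione import (169 ± 14.3), and Slc25a4, the second ADP/ATP exchanger (145 ± 22.2). A cofactor carrier thus stood beside those of ATP synthesis and fatty acid import at the top of the family. Close relatives were unequal in level. Slc25a39 was at 169 TPM against 1.55 for Slc25a40, Slc25a42 at 66.6 against 13.2 for Slc25a16, and Slc25a28 (mitoferrin-2) at 14.3 against 2.91 for Slc25a37 (mitoferrin-1). The glutamate carrier Slc25a22 was at 36.4 TPM and its relative Slc25a18 at 0.0392.

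**Figure D1:**
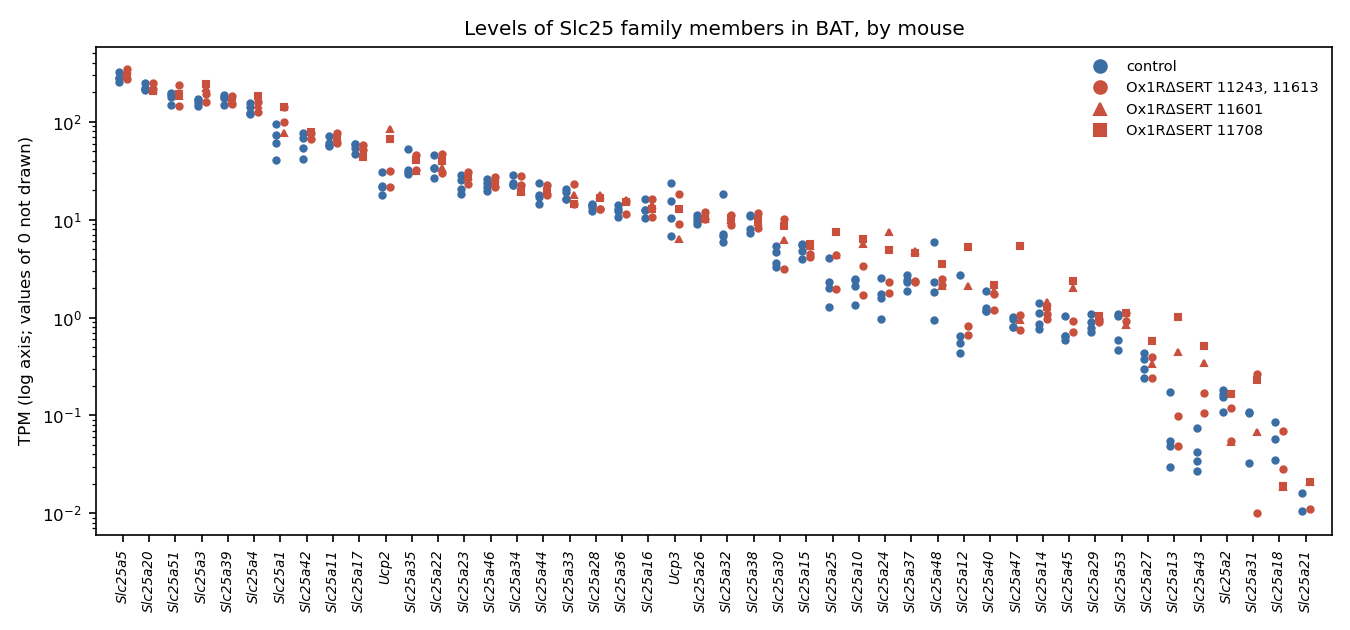
TPM on a log axis for 46 of the 47 members with counts, ordered by mean over 8 mice, with control mice in blue and Ox1RΔSERT mice in red (triangles for mouse 11601, squares for mouse 11708). Slc25a5 leads at 299 TPM, Slc25a20 follows at 224, and the spread between mice widens for members under 10 TPM.

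The summed TPM of all 49 members was 2108, 1649, 1882 and 1880 in control mice and 1794, 2091, 2306 and 2195 in Ox1RΔSERT mice, and these ranges overlapped. Ucp1 alone was close to the whole family in abundance, with a TPM of 2106, 1863, 2638 and 2602 in control mice and 2009, 1964, 2022 and 1893 in Ox1RΔSERT mice. The ratio of Ucp1 to the family was 0.999, 1.13, 1.402 and 1.38 in control mice and 1.12, 0.939, 0.877 and 0.862 in Ox1RΔSERT mice. In 3 of the 4 Ox1RΔSERT mice this ratio was below every control value, and mouse 11243 lay within the control range.

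Reads of some members match other genes as well. Of the 31-base words of the longest protein-coding Slc25a5 transcript, 67.1% also occur in transcripts of 13 other genes, above all Gm5560, so the level of Slc25a5 depends on how Salmon shared out such reads. The share was 14.0% for Slc25a40, 13.6% for Slc25a36, 9.07% for Slc25a37, 7.02% for Slc25a3 and 6.24% for Slc25a51, and lower for the other members examined. Exons of 13 members overlap a gene on the opposite strand, for example 1151 bases of Slc25a35 with Rangrf and 305 bases of Ucp2 with Dnajb13. The libraries were stranded, but whether the quantification used strand is not given in the sources used here.

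Promoters of the members were searched for motifs of factors known to act on mitochondrial genes or in BAT. RefSeq promoters (250 bases before to 50 after the start, GRCm38.p6) were found for 38 of the 49 members. Both strands were searched, and no member held more than 1 of the motifs. The element of the estrogen-related receptors (TNAAGGTCA), which drive oxidative genes, was in the promoters of 0 of 38 members and in those of 1.43% of all 27025 genes. The cyclic AMP response element (TGACGTCA), through which adrenergic signals act, was found in 2 of 38 members against 2.03% of genes, and the site of nuclear respiratory factor 1 (GCGC and TGCGC with any base between them) in 2 of 38 against 5.19%. The 4 matches are shown because they are the whole result of the search, 5′ to 3′ on the strand of the gene with the motif in capitals.
Slc25a25 (chr2:32424199-32424226, minus strand): ctgcaagcagTGACGTCAgtcctgatct
Slc25a36 (chr9:97111185-97111212, minus strand): gcgaacctcgTGACGTCAcgcggcctaa
Slc25a3 (chr10:91124162-91124191, minus strand): ctttggatctGCGCCTGCGCagtaggaatc
Slc25a31 (chr3:40708816-40708845, plus strand): gccgttgggcGCGCCTGCGCagcttttccg
The first lies before an internal start of Slc25a25, and the other 3 lie before the first base of their gene. A match describes the letters only. Slc25a3 and Slc25a31 hold the same 10 letters, whereas Slc25a3 was at 183 TPM and Slc25a31, an ADP/ATP exchanger known from testis, at 0.102.

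The quasi-likelihood test of edgeR was used for the comparison of the groups, with p-values adjusted over all 14489 genes tested. At an adjusted p under 0.05, 0 of 42 members and 0.0% of all genes were called. No gene had an adjusted p below 0.316. DESeq2 called 0 members and 266 genes, 1.75% of the 15179 it tested. At an unadjusted p under 0.05, edgeR gave 5 members, 11.9% of those tested, against 15.2% of all genes. Of these, 4 were lower in Ox1RΔSERT mice (all genes: 4.96% lower) and 1 was higher (all genes: 10.2% higher).

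Most members had slightly lower values in Ox1RΔSERT mice. The log2 fold change was below 0 in 28 of 42 members against 49.6% of all genes, and its median was -0.17 against 0.00. Normalized values of the groups did not overlap in 3 members (all genes: 5.5%), each lower in Ox1RΔSERT mice (all genes: 2.81% lower), and in 0 members higher (all genes: 2.69%). In TPM the groups overlapped in each of these 3 members. Mice 11601 and 11708 held the lowest values of the 8 in 17 members (all genes: 15.3%) and the highest in 6 (all genes: 20.1%). Without these mice the median of the members was -0.09, against -0.01 for all genes, and 1 member (Slc25a1) had an unadjusted p under 0.05, against 2.85% of all genes in that fit.

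The direction depended on the scaling of the libraries. The values so far use TMM scaling. With the library size alone, the median of all genes was shifted by 0.22 and the median of the members was 0.04, or -0.18 relative to that shift. At an unadjusted p under 0.05 the members split into 0 lower and 7 higher instead of 4 and 1. The share of all genes at this p in that fit is not given here, so this split is descriptive only. On log2(TPM + 1), the median of all genes was shifted by 0.23 and that of the members was 0.14, or -0.09 relative to the shift. The median of the members was below that of all genes under each scaling tried, and it was above 0 where library size or TPM set the scale.

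**Figure D2:**
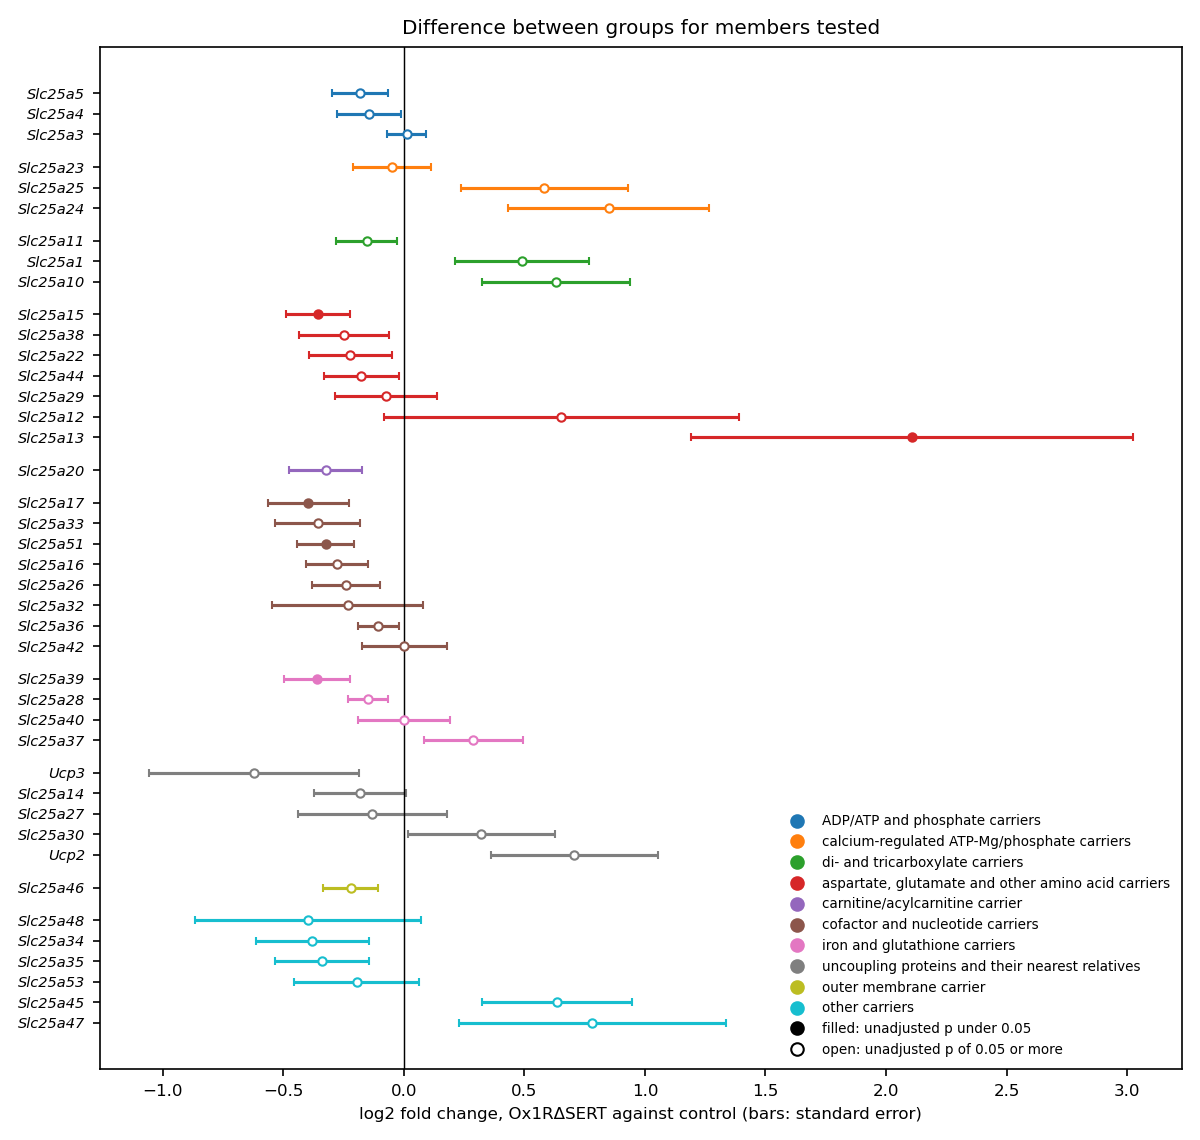
Log2 fold change between Ox1RΔSERT and control mice for 41 of the 42 members tested, grouped and coloured by role, with bars for the standard error and filled points for an unadjusted p under 0.05. Of the 41 points, 27 lie left of 0, and the 8 cofactor and nucleotide carriers lie left of 0 except Slc25a42 at 0.00.

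The ADP/ATP and phosphate carriers supply ATP synthase with its substrates. Of these 4 genes, 3 were tested and 0 had an unadjusted p under 0.05. Normalized values of Slc25a3, which imports phosphate, were 235, 232, 229 and 244 CPM in control and 243, 225, 227 and 253 CPM in Ox1RΔSERT mice, a log2 fold change of 0.01 (SE 0.08, edgeR adjusted p = 0.955). These values spanned a narrow range, and those of the Ox1RΔSERT mice enclosed the control mice. The sign of this difference turned with the scaling and with single mice left out.

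Slc25a5, the exchanger found in most tissues, had normalized values of 398, 359.5, 362 and 347 CPM in control and 363, 301, 354 and 273 CPM in Ox1RΔSERT mice, a log2 fold change of -0.18 (SE 0.12, edgeR adjusted p = 0.452). The lowest were mice 11601 and 11708, and without them the log2 fold change was -0.03. For Slc25a4, the exchanger of heart and muscle, normalized values were 297, 309, 236 and 235 CPM in control and 255, 205, 255 and 260.3 CPM in Ox1RΔSERT mice, a log2 fold change of -0.14 (SE 0.13, edgeR adjusted p = 0.605). Mouse 11601 was the lowest, and the other 3 Ox1RΔSERT mice lay within the control range.

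The ratio of Slc25a4 to Slc25a5 reads (a ratio of normalized values within a mouse) was 0.747, 0.859, 0.651 and 0.677 in control and 0.702, 0.6797, 0.719 and 0.954 in Ox1RΔSERT mice. The highest ratios were those of mice 11708 and 11253, which also had the most skeletal muscle marker RNA. The groups differed by 0.05 on the log2 scale (exact permutation test, p = 0.657). Whether muscle RNA contributed to these ratios was not tested.

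ATP synthase uses what these carriers bring in. The genes of ATP synthase and its regulators tested were 18, with Atpif1, its inhibitor, and Ppif, which encodes cyclophilin D, included. Of these, 4 had an unadjusted p under 0.05, all lower in Ox1RΔSERT mice (all genes: 4.96% lower). In 16 of 18 the log2 fold change was below 0 (all genes: 49.6%), with a median of -0.29 against 0.00 for all genes. Without mice 11601 and 11708 this median was -0.07. Atp5c1, the gamma subunit of the rotor, had normalized values of 508, 499.8, 488 and 471 CPM in control and 460.1, 365, 415 and 344 CPM in Ox1RΔSERT mice, with no overlap between the groups (log2 fold change -0.31, SE 0.11, edgeR adjusted p = 0.316).

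The calcium-regulated ATP-Mg/phosphate carriers adjust the pool of adenine nucleotides in the matrix. Slc25a41 had no counts and the other 3 were tested, with 0 at an unadjusted p under 0.05. Slc25a23 was the most abundant of them at 25.1 TPM, and its log2 fold change was -0.05 (SE 0.16, edgeR adjusted p = 0.904). Slc25a24 (log2 fold change 0.85) and Slc25a25 (0.58) had higher means in Ox1RΔSERT mice. Normalized values of Slc25a24, singled out after its values were seen, were 3.400, 7.17, 5.85 and 9.14 CPM in control and 6.83, 19.5, 6.33 and 13.3 CPM in Ox1RΔSERT mice. Its highest values were those of mice 11601 and 11708, as for all 10 leukocyte and macrophage markers, and without these mice its log2 fold change was 0.05. The part of leukocyte RNA in this difference was not tested.

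Among the di- and tricarboxylate carriers, Slc25a1, Slc25a10 and Slc25a11 were tested and 0 had an unadjusted p under 0.05. Slc25a1 exports citrate, the source of acetyl-CoA for fatty acid synthesis in the cytosol. Its normalized values were 166, 80.7, 105 and 125 CPM in control and 182, 95.2, 213 and 179 CPM in Ox1RΔSERT mice. In 3 of 4 Ox1RΔSERT mice the value was above every control mouse, and mouse 11601 lay within the control range. Its log2 fold change was 0.49 (SE 0.28, edgeR adjusted p = 0.408). Without mice 11601 and 11708 it was 0.74, with an unadjusted edgeR p of 0.0239 and an adjusted p of 0.996. The difference in Slc25a1 was thus larger when these 2 mice were left out.

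Slc25a11, which exchanges oxoglutarate for malate in the malate-aspartate shuttle, had normalized values of 123, 109.6, 102 and 103 CPM in control and 110.3, 84.1, 113 and 85.7 CPM in Ox1RΔSERT mice, a log2 fold change of -0.15 (SE 0.13, edgeR adjusted p = 0.5599). Again mice 11601 and 11708 were below all others, and without them the difference was 0.04. For Slc25a10, which exchanges dicarboxylates for phosphate, the log2 fold change was 0.63 (SE 0.31, edgeR adjusted p = 0.353). Of 5 tested enzymes that make or use exported citrate, 0 had an unadjusted p under 0.05, with a median log2 fold change of -0.12. Acly, which splits citrate in the cytosol, had normalized values of 893, 154, 219 and 242 CPM in control and 592, 338, 715 and 811 CPM in Ox1RΔSERT mice. The highest control value, that of mouse 10684, was also the highest of all 8 (log2 fold change 0.70, SE 0.55).

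The aspartate, glutamate and other amino acid carriers number 9, of which 7 were tested. At an unadjusted p under 0.05, 1 was lower and 1 higher (all genes: 4.96% lower and 10.2% higher). Slc25a15 takes ornithine into mitochondria. Its normalized values were 18.1, 17.5, 22.1 and 21.6 CPM in control and 18.2, 15.01, 12.8 and 16.1 CPM in Ox1RΔSERT mice, with means of 19.9 ± 2.35 in control mice and 15.5 ± 2.25 in Ox1RΔSERT mice (SD, n = 4 each). In 3 of 4 Ox1RΔSERT mice they were below every control mouse, and mouse 11613 was the lowest. The log2 fold change was -0.36 (SE 0.13, edgeR adjusted p = 0.316), with an unadjusted p of 0.0267 in edgeR. Without mice 11601 and 11708 it was -0.35 (edgeR unadjusted p = 0.0904, adjusted p = 0.996). Of the Ox1RΔSERT mice in that fit, 11613 lay below the control range and 11243 within it.

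Slc25a12 and Slc25a13 are the aspartate/glutamate exchangers of the malate-aspartate shuttle, Slc25a12 in muscle and brain and Slc25a13 in liver. Both were low in BAT, at 1.65 and 0.2395 TPM on average. Normalized values of Slc25a12 were 1.88, 9.51, 1.72 and 1.89 CPM in control and 2.49, 5.33, 2.47 and 13.2 CPM in Ox1RΔSERT mice. The highest 2 were those of mice 11708 and 11253, followed by 11601, and these were also the 3 mice with the most skeletal muscle marker RNA, at 2728, 1966 and 223. The log2 fold change of Slc25a12 was 0.65 (SE 0.74, edgeR adjusted p = 0.676), and without mice 11601 and 11708 it was -0.57.

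Slc25a13 was the only member with an unadjusted p under 0.05 that was higher in Ox1RΔSERT mice. Its normalized values were 0.157, 0.602, 0.0903 and 0.168 CPM in control and 0.371, 1.105, 0.135 and 2.63 CPM in Ox1RΔSERT mice, a log2 fold change of 2.11 (SE 0.92, edgeR adjusted p = 0.328) and an unadjusted p of 0.0475 in edgeR. The highest were those of mice 11708 and 11601. The lowest values lay near the floor of 3 counts. Hepatocyte markers were highest in mouse 11708 as well (719 against 49.8 in mouse 11601), and without these mice the log2 fold change was 0.07. The part of other cell types in the values of Slc25a12 and Slc25a13 was not tested.

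Slc25a44 imports branched-chain amino acids, which brown fat burns. Normalized values were 105, 71.4, 79.4 and 73.8 CPM in control and 82.8, 62.4, 82.7 and 63.2 CPM in Ox1RΔSERT mice, a log2 fold change of -0.18 (SE 0.16, edgeR adjusted p = 0.586). The 2 lowest were those of mice 11601 and 11708 at 62.4 and 63.2, mice 11243 and 11613 lay within the control range, and without the first 2 the difference was 0.01. Of the 6 enzymes of branched-chain amino acid breakdown, 6 had a log2 fold change below 0 (all genes: 49.6%), with a median of -0.30. Of these 6, 1 had an unadjusted p under 0.05 (all genes: 15.2%). That gene was Dbt, the core subunit of the branched-chain ketoacid dehydrogenase, with normalized values of 211, 164, 180.2 and 172 CPM in control and 158, 124, 153 and 115 CPM in Ox1RΔSERT mice and no overlap (log2 fold change -0.40, SE 0.13, edgeR adjusted p = 0.316).

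Of the other amino acid carriers, the glutamate carrier Slc25a22 had a log2 fold change of -0.22, the glycine carrier Slc25a38 -0.25 and the basic amino acid carrier Slc25a29 -0.07. Their unadjusted p-values in edgeR were 0.236, 0.214 and 0.737. Enzymes of the malate-aspartate and glycerol phosphate shuttles had 1 of 6 genes at an unadjusted p under 0.05 (all genes: 15.2%). That gene was Got1, the cytosolic aspartate aminotransferase (log2 fold change -0.59, SE 0.18, edgeR adjusted p = 0.316). Normalized values of Got1 were 40.96, 65.2, 65.3 and 69.9 CPM in control and 46.3, 34.8, 34.1 and 45.1 CPM in Ox1RΔSERT mice, so that only control mouse 10684 fell within the range of the Ox1RΔSERT mice.

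Slc25a20 brings acylcarnitines into the matrix in exchange for free carnitine, the step that feeds fatty acids to oxidation. Normalized values were 535, 511, 488 and 462 CPM in control and 494, 332, 441 and 328 CPM in Ox1RΔSERT mice, with means of 499 ± 30.9 in control mice and 399 ± 82.5 in Ox1RΔSERT mice (SD, n = 4 each). The values of mice 11601 and 11708 were far below the others, mouse 11613 was just below the lowest control mouse and mouse 11243 was within the control range. This gave a log2 fold change of -0.32 (SE 0.15, edgeR adjusted p = 0.345), and without mice 11601 and 11708 it was -0.09. Among the DESeq2 fits with a mouse left out, the fit without mouse 11243 called Slc25a20 lower (adjusted p = 0.0450) and the others did not.

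Of the 5 genes of the carnitine shuttle around this carrier, 0 were lower at an unadjusted p under 0.05 (all genes: 4.96%) and 1 was higher (10.2%). In 4 of 5 the log2 fold change was below 0 (all genes: 49.6%). Cpt1b, the muscle and brown fat form of the outer membrane carnitine palmitoyltransferase, had normalized values of 967, 879, 825 and 810.0 CPM in control and 863, 609, 961 and 671 CPM in Ox1RΔSERT mice, a log2 fold change of -0.16, SE 0.16. The gene that was higher was Cpt1a, the liver form, with normalized values of 12.1, 14.8, 12.1 and 11.6 CPM in control and 12.3, 25.2, 13.1 and 29.7 CPM in Ox1RΔSERT mice (log2 fold change 0.67, SE 0.29, edgeR adjusted p = 0.326). For Cpt1a, mice 11601 and 11708 were the highest of the 8, and without them its log2 fold change was 0.01.

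The cofactor and nucleotide carriers had lower means in Ox1RΔSERT mice in all genes but 1. All 9 were tested, 8 had a log2 fold change below 0 (all genes: 49.6%), and the median was -0.28 against 0.00 for all genes. At an unadjusted p under 0.05, 2 were lower and 0 higher (all genes: 4.96% lower and 10.2% higher). In 7 of 9, mice 11601 and 11708 were the lowest of the 8 mice (all genes: 15.3%), and without them the median was -0.10.

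Slc25a51 imports NAD, which many dehydrogenases of the matrix need. Normalized values were 737, 701, 765 and 753 CPM in control and 639.8, 530.0, 677 and 515 CPM in Ox1RΔSERT mice, with means of 739 ± 27.6 in control mice and 590.4 ± 79.96 in Ox1RΔSERT mice (SD, n = 4 each). On this scale every Ox1RΔSERT mouse was below every control mouse. In TPM the groups overlapped, at 180, 147, 191 and 196 in control and 145, 183, 236 and 192 in Ox1RΔSERT mice. With TMM scaling the group difference was a log2 fold change of -0.32 (SE 0.12, edgeR adjusted p = 0.316), with an unadjusted p of 0.0234 in edgeR. It ranged from -0.40 to -0.26 when each mouse was left out in turn and was -0.16 without mice 11601 and 11708. Its exons overlap a short RNA gene on the same strand by 125 bases.

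Slc25a17 is a carrier of CoA, FAD and NAD in the peroxisomal membrane. Normalized values were 82.9, 111, 109.9 and 106 CPM in control and 98.5, 72.01, 82.5 and 58.1 CPM in Ox1RΔSERT mice, with means of 102 ± 13.2 in control mice and 77.8 ± 17.1 in Ox1RΔSERT mice (SD, n = 4 each). Mouse 11708 was the lowest and mouse 11601 the next, and control mouse 10684 fell within the range of the Ox1RΔSERT mice. This gave a log2 fold change of -0.40 (SE 0.17, edgeR adjusted p = 0.325), with an unadjusted p of 0.0434 in edgeR, and it was -0.17 without mice 11601 and 11708.

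For 6 other cofactor and nucleotide carriers, the log2 fold changes were -0.36 for Slc25a33 and -0.11 for Slc25a36, which carry pyrimidine nucleotides, -0.28 for Slc25a16 and 0.00 for Slc25a42, the CoA carrier, -0.24 for Slc25a26, which carries S-adenosylmethionine, and -0.23 for Slc25a32, a folate and FAD carrier. The sign of the Slc25a32 difference rested on control mouse 10684, without which it was 0.24. Each of these 6 had an unadjusted p of at least 0.0598 in edgeR.

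**Figure D3:**
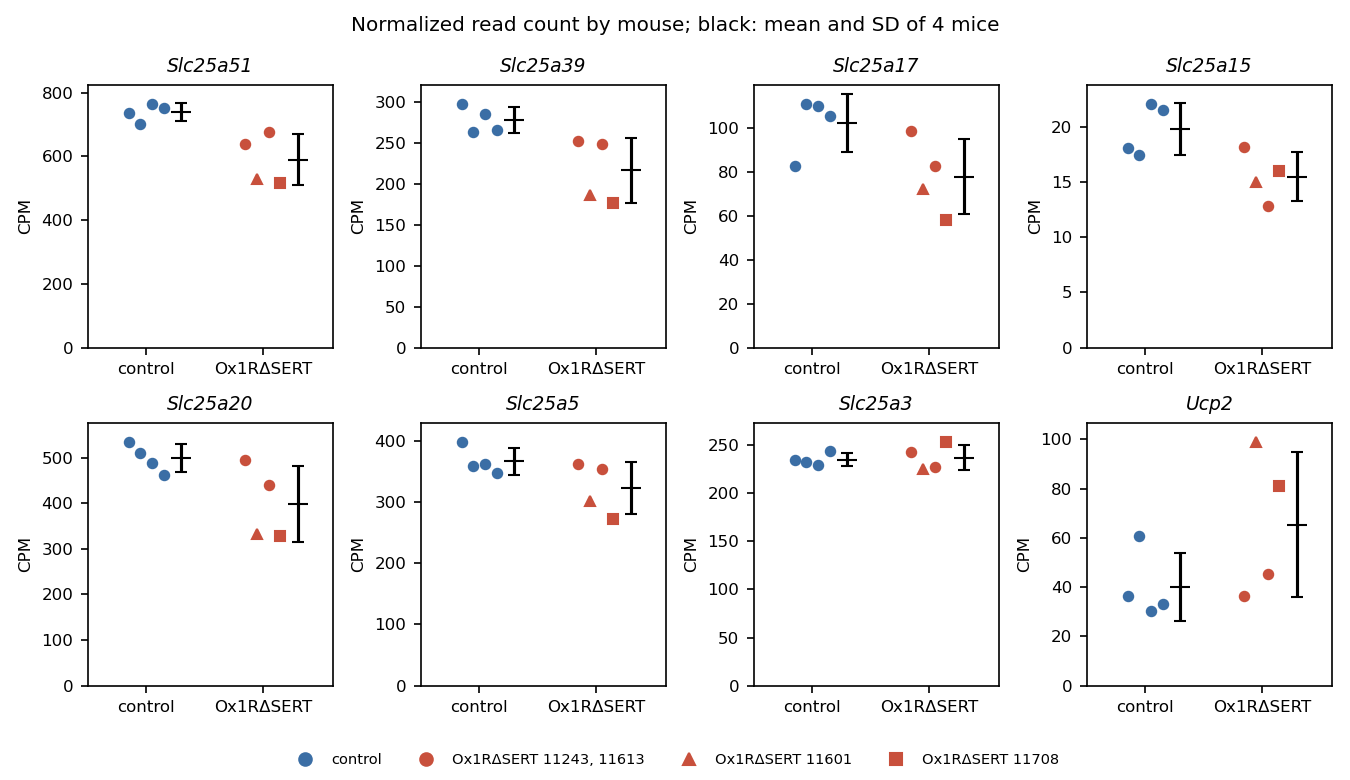
Normalized values (CPM after TMM scaling, axes from 0) of 8 members by mouse, with the mean and SD of 4 mice in black, control mice in blue and Ox1RΔSERT mice in red (triangle for mouse 11601, square for mouse 11708). The groups do not overlap for Slc25a51 and Slc25a39, mice 11601 and 11708 are the lowest for Slc25a51, Slc25a39, Slc25a17, Slc25a20 and Slc25a5, and for Ucp2 they are the highest.

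Iron and glutathione carriers supply the making of heme and iron-sulfur clusters and the defence against oxidants. All 4 were tested, with 1 lower and 0 higher at an unadjusted p under 0.05 (all genes: 4.96% lower and 10.2% higher). Slc25a39, needed for import of glutathione, had normalized values of 297, 263, 285 and 266 CPM in control and 253, 187, 249 and 177 CPM in Ox1RΔSERT mice, with means of 278 ± 16.3 in control mice and 216 ± 39.96 in Ox1RΔSERT mice (SD, n = 4 each). Every Ox1RΔSERT mouse was below every control mouse on this scale, with mice 11601 and 11708 the lowest. In TPM the groups overlapped, at 150 to 188 in control and 153 to 182 in Ox1RΔSERT mice. The log2 fold change was -0.36 (SE 0.14, edgeR adjusted p = 0.316), with an unadjusted p of 0.0282 in edgeR, and it was -0.14 without mice 11601 and 11708. Its relative Slc25a40 had a log2 fold change of 0.00 (SE 0.19, edgeR adjusted p = 0.998). The ratio of Slc25a39 to Slc25a40 differed between the groups by -0.39 on the log2 scale, which was not beyond the spread between mice (exact permutation test, p = 0.2000).

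The mitoferrins import iron. Slc25a28 had normalized values of 18.99, 19.5, 20.1 and 20.03 CPM in control and 18.9, 18.2, 16.2 and 17.5 CPM in Ox1RΔSERT mice, a log2 fold change of -0.15 (SE 0.08, edgeR adjusted p = 0.397). The groups did not overlap, by a margin of less than 1 CPM, and the lowest mouse was 11613. In TPM the groups overlapped, and the mean was higher in Ox1RΔSERT mice (15.1 against 13.6 in control mice). Slc25a37, the mitoferrin of red cell precursors, had normalized values of 12.4, 11.1, 12.8 and 13.96 CPM in control and 12.9, 18.9, 10.2 and 19.3 CPM in Ox1RΔSERT mice, a log2 fold change of 0.29 (SE 0.20, edgeR adjusted p = 0.501). Mice 11601 and 11708 were the highest, and without them it was -0.11. The summed erythroid markers were 353 and 585 in these mice, within or below the control range of 464 to 1158. Of the 7 heme and iron genes that work with the mitoferrins, 1 had an unadjusted p under 0.05 (all genes: 15.2%). All 7 had a log2 fold change below 0 (all genes: 49.6%).

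The uncoupling proteins Ucp2 and Ucp3 and their relatives Slc25a14, Slc25a27 and Slc25a30 were all tested, with 0 at an unadjusted p under 0.05. Ucp2, found in macrophages and many other cells, had normalized values of 36.2, 60.7, 30.3 and 33.1 CPM in control and 36.3, 98.9, 45.2 and 81.03 CPM in Ox1RΔSERT mice, a log2 fold change of 0.71 (SE 0.35, edgeR adjusted p = 0.356). The highest were those of mice 11601 and 11708, then control mouse 11253. These were also the 3 mice with the most leukocyte and macrophage marker RNA (864, 686 and 235). Without mice 11601 and 11708 the log2 fold change was 0.03, and the part of leukocyte RNA was not tested.

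Ucp3, a gene of brown fat and muscle, had normalized values of 75.7, 55.5, 33.6 and 21.5 CPM in control and 29.7, 14.2, 47.3 and 29.7 CPM in Ox1RΔSERT mice, a log2 fold change of -0.62 (SE 0.44, edgeR adjusted p = 0.495). The spread within the control mice was wide, and 3 of 4 Ox1RΔSERT mice lay within it. The ratio of Ucp2 to Ucp3 reads was 0.479, 1.09, 0.899 and 1.54 in control and 1.22, 6.95, 0.956 and 2.73 in Ox1RΔSERT mice. It was above every control value in mice 11601 and 11708 (difference of the groups 1.23 on the log2 scale, exact permutation test, p = 0.171). Ucp1 itself had a log2 fold change of -0.54, SE 0.18 (edgeR adjusted p = 0.316) and remained at -0.34 without mice 11601 and 11708.

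Exon overlap limits Ucp2, which shares 305 bases with Dnajb13 on the other strand. Of its relatives, Slc25a30 had a log2 fold change of 0.32 (SE 0.31, edgeR adjusted p = 0.616), Slc25a14 of -0.18 (SE 0.19, edgeR adjusted p = 0.653) and Slc25a27 of -0.13 (SE 0.31, edgeR adjusted p = 0.856). Each of these had overlapping groups.

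Slc25a46, which sits in the outer membrane and acts in mitochondrial fusion and fission, had a log2 fold change of -0.22 (SE 0.11, edgeR adjusted p = 0.3699). The carriers without a firmly settled substrate or outside the roles above numbered 8, of which 6 were tested, with 0 at an unadjusted p under 0.05. Their log2 fold changes were -0.38 for Slc25a34, -0.34 for Slc25a35, -0.40 for Slc25a48, -0.20 for Slc25a53, 0.63 for Slc25a45 and 0.78 for Slc25a47. For Slc25a48 the sign rested on control mouse 10684, without which the log2 fold change was 0.26. With single mice left out, the sign also turned for Slc25a53 and, among the members above, for Slc25a23, Slc25a27 and Slc25a29. Slc25a47, a gene of liver singled out after its values were seen, had normalized values of 1.39, 1.52, 1.76 and 1.64 CPM in control and 1.33, 1.18, 1.59 and 6.75 CPM in Ox1RΔSERT mice. It was high only in mouse 11708, the mouse with the most hepatocyte marker RNA, and without mice 11601 and 11708 its log2 fold change was -0.11. The part of hepatocyte RNA was not tested.

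**Figure D4:**
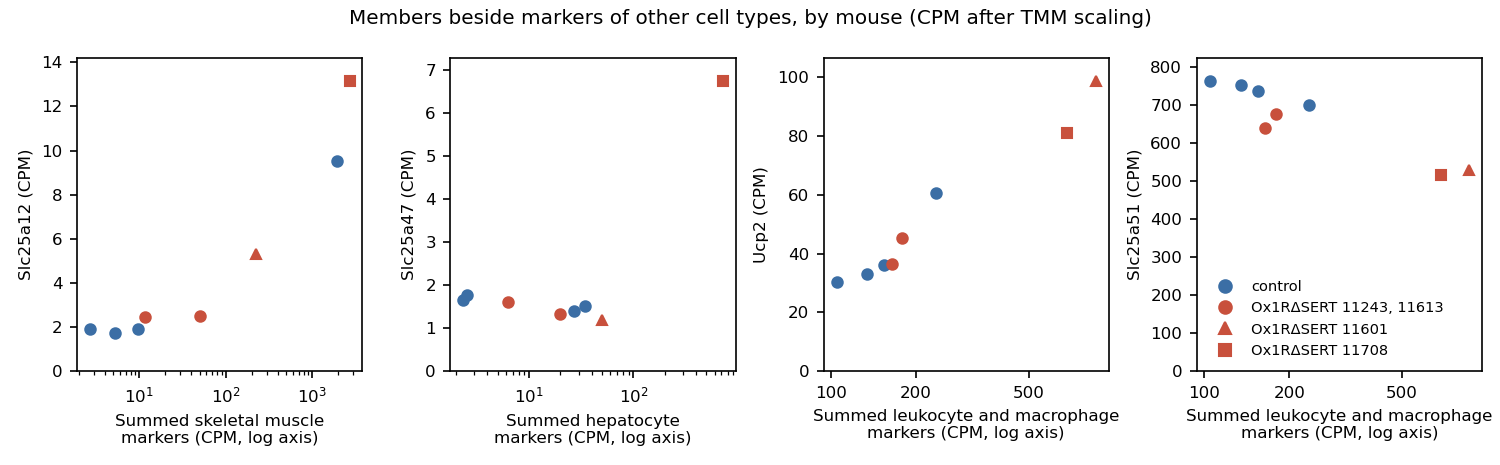
Normalized values of Slc25a12, Slc25a47, Ucp2 and Slc25a51 by mouse (vertical axes, CPM from 0) against the summed markers of skeletal muscle, hepatocytes and leukocytes (horizontal log axes, CPM), with 4 control mice in blue and 4 Ox1RΔSERT mice in red. Slc25a12 is highest in the mice with 1966 and 2728 CPM of muscle markers, Slc25a47 is high only in the mouse with 719 CPM of hepatocyte markers, and the mice with 686 and 864 CPM of leukocyte markers have the highest Ucp2 and the lowest Slc25a51.

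Of 8 ratios of close relatives that were set, 7 could be computed, since Slc25a18 was not tested. In all 7 the groups overlapped. Two-sided exact permutation tests, with 70 possible assignments of the mice, gave p-values from 0.0857 to 0.657, where the smallest possible is 0.0286, and 0.233 or 0.657 after adjustment over the 7. The lowest was that of Slc25a16 to Slc25a42 (difference -0.30 on the log2 scale). For Slc25a12 to Slc25a13 the difference was -0.94, for Slc25a28 to Slc25a37 -0.39 and for Slc25a33 to Slc25a36 -0.28.

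The deviations by mouse divide the members. In mice 11601 and 11708, Slc25a34, Slc25a33, Slc25a17, Slc25a39, Slc25a20 and Slc25a51 were below the other mice, while Ucp2, Slc25a24, Slc25a45, Slc25a10, Slc25a37 and Slc25a13 were above them. The calls of DESeq2 changed with the mouse left out. Without mouse 11243 it called 5 members (Slc25a10 higher, Slc25a15, Slc25a17, Slc25a20 and Slc25a34 lower) and 9.37% of all genes, and without mouse 11613 it called 3 (Slc25a13 higher, Slc25a33 and Slc25a51 lower) and 5.96%. It called 0 members without control mouse 10684 (all genes: 2.64%), 11253 (1.56%), 11560 (0.11%) or 11563 (0.298%), without Ox1RΔSERT mouse 11601 (0.085%) or 11708 (0.113%), and without the latter 2 together (0.0467%).

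**Figure D5:**
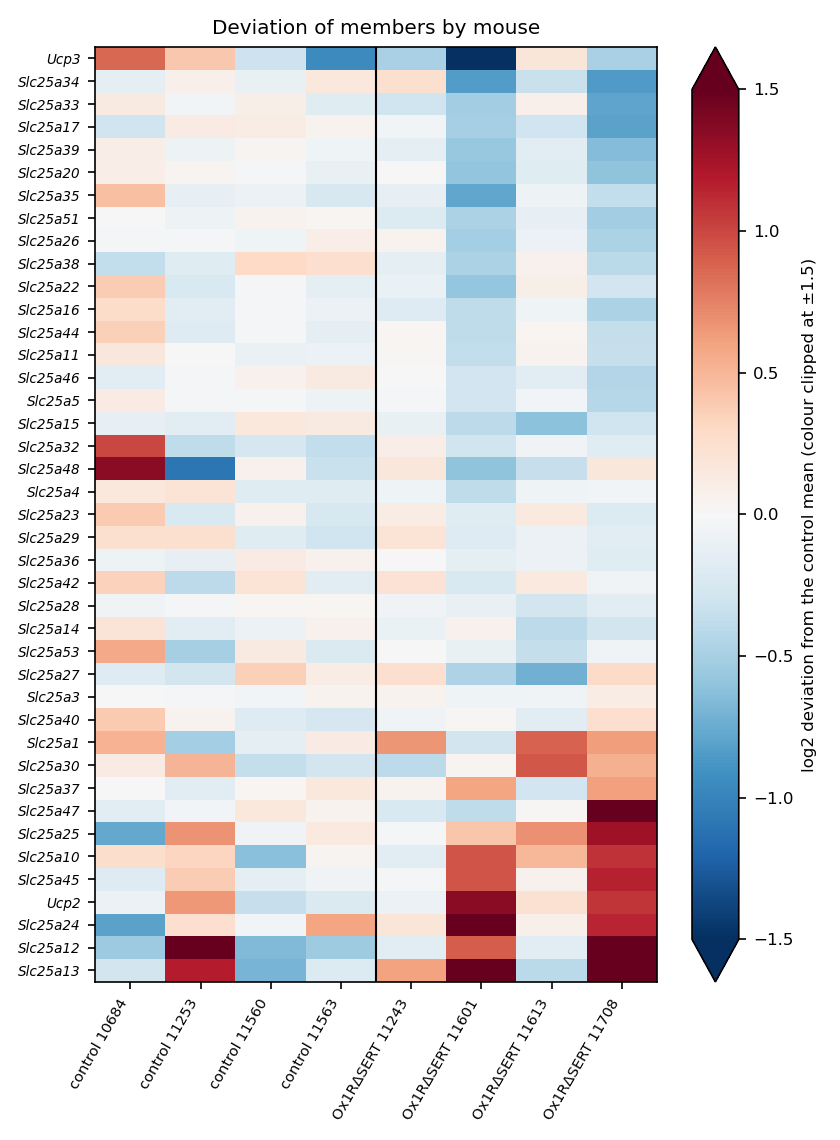
Log2 deviation of 41 of the 42 members tested from the mean of the control mice (normalized values with a pseudocount of 0.1, colour clipped at 1.5 either way), one column per mouse and control mice left of the line. Members are sorted by the mean of mice 11601 and 11708, whose columns run from blue at the top to red at the bottom, and these mice hold the lowest values in 16 of the members drawn and the highest in 6.

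Other mitochondrial gene groups are given beside the members. Nduf genes were taken as the symbols Ndufa, Ndufb, Ndufc, Ndufs or Ndufv followed by a number. These symbols leave out the assembly factors of complex I (Ndufaf). All 37 tested had a log2 fold change below 0, with a median of -0.30. Of them, 12 were lower at an unadjusted p under 0.05 (all genes: 4.96% lower). Of 78 mitochondrial ribosomal protein genes (Mrpl and Mrps), 77 were below 0, with a median of -0.21 and 20 lower. The lowest values were those of mice 11601 and 11708 in 36 of 37 and 68 of 78 of these (all genes: 15.3%). Without these mice the medians were -0.05 for the Nduf genes and -0.05 for the ribosomal protein genes, against -0.09 for the Slc25 members. Of the Slc25 members, 28 of 42 were below 0 and 17 of 42 were lowest in these mice. The 183 tested solute carriers of other families had a median of 0.13. At the same p, 9 were lower and 23 higher (all genes: 4.96% lower and 10.2% higher). Differences between these groups of genes were not tested.

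The TIM22 route brings carriers into the inner membrane. The 9 genes tested for this import included Tomm genes, which serve entry through the outer membrane in general. Of these 9, 4 had an unadjusted p under 0.05, all lower (all genes: 4.96% lower). Both Timm and Tomm genes were among these 4. All 9 had a log2 fold change below 0 (all genes: 49.6%), with a median of -0.20. Timm22, the channel of this route, had normalized values of 17.8, 19.9, 18.3 and 18.3 CPM in control and 17.03, 13.7, 17.02 and 13.5 CPM in Ox1RΔSERT mice, with no overlap (log2 fold change -0.28, SE 0.11, edgeR adjusted p = 0.317). Without mice 11601 and 11708 the median of the 9 was -0.09.

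Other mitochondrial transporters, which the naming rule did not take in, numbered 23, with a median of -0.12. At an unadjusted p under 0.05, 4 were lower and 2 higher (all genes: 4.96% lower and 10.2% higher). Those lower were Mpc2, a subunit of the pyruvate carrier (-0.37), Micu3, a regulator of calcium uptake (-0.40), Letm1, a cation exchanger (-0.39), and Ghitm (-0.36). Those higher were Mcub, an inhibitory subunit of the calcium uniporter (1.76), and Slc8b1, the sodium/calcium exchanger (0.41). Mcub had normalized values of 0.811, 1.300, 0.881 and 1.01 CPM in control and 1.14, 6.31, 1.19 and 4.89 CPM in Ox1RΔSERT mice, highest in mice 11601 and 11708. The outer membrane channels Vdac1, Vdac2 and Vdac3 had log2 fold changes of -0.09, -0.17 and -0.16.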

How the data were processed

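Poly-A RNA of BAT from 4 control and 4 Ox1RΔSERT mice was sequenced. Libraries were stranded. For the quantification the authors ran Salmon 0.14.1 through nf-core/rnaseq, and the submitters' processing notes also name STAR, GRCm38.p6 and DESeq2 1.26.0. The authors deposited estimated counts per gene, not normalized, and TPM values, which they normalized for transcript length and depth. The annotation release is not given in the sources used here. Symbols and positions came from GENCODE M21 (GRCm38), which matched 44118 of 44674 identifiers, and promoter sequences from RefSeq.

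Estimated counts were rounded and compared with edgeR 4.0.16 (filterByExpr, TMM, glmQLFit, glmQLFTest) in R 4.3.3, two-sided, all 8 mice, no covariates, Benjamini-Hochberg adjustment over all 14489 genes tested and a threshold of 0.05. Normalized values are CPM after TMM scaling, and standard errors follow from the F statistic. Ratios of relatives were compared by two-sided exact permutation tests. No value is tied to separate litters or cages, so p-values measure the spread between these mice. Members with values in every mouse were the 5 with the highest mean TPM, those with an unadjusted p under 0.05 and a set list of carriers. One member and 1 gene of another list stay in the counts but are not reported here by name or drawn. The members and gene lists were chosen with earlier results of these data known. Alternatives were DESeq2 1.42.0, other scalings and filters, a transcript length offset, edgeR's likelihood-ratio test, limma 3.58.1 (voom, and trend on log2 TPM with pseudocounts of 1 and 0.1), and mice left out. DESeq2 with mice left out was added after the data were seen. Each script with a test across genes was tested on simulated data. Of the deposited columns, 0 were left unmapped to a mouse.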

Additional observations from a re-analysis of the deposited data

Results flagged for a closer look

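Within each group of 4 mice, the highest or lowest normalized value of a member was set against the other 3 by Dixon's criterion, in 84 groups (42 members in 2 groups), of which chance flags about 1 in 20. It marked 5. Slc25a4, the ADP/ATP exchanger of muscle and heart, was at 204.5 CPM in Ox1RΔSERT mouse 11601, and the other 3 mice of the group were at 255 to 260.3. In control mouse 11253, Slc25a12 was at 9.51 CPM (other control mice 1.72 to 1.89) and Slc25a13 at 0.602 CPM (0.0903 to 0.168), and this mouse had 1966 CPM of skeletal muscle markers. Slc25a32, the folate and FAD carrier, was at 45.1 CPM in control mouse 10684 against 17.2 to 18.7 in the other control mice. Slc25a47 was at 6.75 CPM in Ox1RΔSERT mouse 11708, against 1.18 to 1.59, and this mouse had 719 CPM of hepatocyte markers. The part of other cell types in these values was not tested.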

How the results depend on the processing

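The precision is limited by 4 mice per group and, for members under about 1 TPM, by few counts. No member was called by any edgeR, limma or full DESeq2 fit, and DESeq2 with a mouse left out called 0 to 5. No paired analysis was possible because nothing in the labels pairs the mice. Over all genes, DESeq2 called 266, edgeR's likelihood-ratio test 24 and DESeq2 without mice 11601 and 11708 called 9, and DESeq2 with each mouse left out called 17 to 1513 (without mouse 11601 or control mouse 11560 17, without 11708 18, without 11563 49, without 11253 243, without 10684 373, without 11613 931 and without 11243 1513).

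The number of members lower at an unadjusted p under 0.05, 4 in the reported fit, was 0 with the library size alone, 0 on log2 TPM with either pseudocount and without a filter, 2 by the likelihood-ratio test, 0 without mice 11601 and 11708, and 0 to 9 with each mouse left out (0 without control mouse 11560 or 11563 or Ox1RΔSERT mouse 11601, 1 without 11708 and 9 without 11243). The number higher, 1 in the reported fit, was 5 by DESeq2, 7 with the library size alone, 2 without a filter and 2 by the likelihood-ratio test. It was 0 with at least 10 counts in every mouse, with a length offset and by limma voom, 4 on log2 TPM with either pseudocount and 3 on log2 TPM without a filter. With each mouse left out it was 0 to 5 (0 without control mouse 11560 or Ox1RΔSERT mouse 11708, 4 without 11253, 5 without 11243 and 5 without 11613). For these alternatives, other than the fit without mice 11601 and 11708, the share of all genes at this p is not given here. The counts of members are therefore descriptive only.

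Of 395 comparisons of a named member's log2 fold change with an alternative, 11 changed sign, in 5 of 18 members. These were Slc25a3 (-0.00563 with upper-quartile scaling, -0.00987 without a filter and -0.0215 to 0.0362 with each mouse left out), Slc25a12 (-0.12 without mouse 11708 to 1.65 without control mouse 11253, and -0.57 without mice 11601 and 11708), and, without the latter 2 mice, Slc25a11 (0.0354), Slc25a37 (-0.11) and Slc25a44 (0.0133). The ratio of Slc25a4 to Slc25a5 (0.05) changed sign without control mouse 11560 and without Ox1RΔSERT mouse 11708, and with each mouse left out it ranged from -0.0588 to 0.131. The median of the members kept its sign under all 22 alternatives, taken relative to the shift of all genes where that exceeded 0.1, and ranged from -0.25 (without mouse 11243) to -0.09. The cause was not tested.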

Other observations

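The members under the filter on low counts held few reads. Slc25a43, a carrier without a firmly settled substrate, had 2, 1, 4 and 2 counts in control mice and 6, 14, 7 and 21 counts in Ox1RΔSERT mice, 9 against 48 in all. Every Ox1RΔSERT mouse had more than every control mouse, with mice 11601 and 11708 the highest, and neither edgeR nor DESeq2 gave it an adjusted p. Slc25a2, an ornithine carrier without introns in this annotation, had 9, 6, 13 and 12 counts in control mice and 9, 3, 3 and 9 counts in Ox1RΔSERT mice. These were chosen after their values were seen.

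Slc25a48 differed most between control mice among members over 1 TPM that Dixon's criterion did not mark, with normalized values of 24.2, 4.41, 9.82 and 7.48 CPM in control and 10.7, 6.15, 7.39 and 10.7 CPM in Ox1RΔSERT mice. Control mouse 10684, the highest, also held the highest Slc25a32 and Slc25a35 (45.1 and 122 CPM) and the highest Acly (893 CPM). Dio2, the enzyme that activates thyroid hormone in brown fat, was at 198 CPM in this mouse, 818 to 1126 in the other control mice and 198 to 534 in Ox1RΔSERT mice.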
